A study of Sus scrofa with 15 samples.

Results

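The 9 genes described here, RGS5, PDGFRB, KCNJ8, ABCC9, NOTCH3, CSPG4, MCAM, ANPEP and NDUFA4L2, are used as markers of pericytes, and they were taken by name from a table of 26654 genes. All 9 had a row and counts in every library. The erectile tissue of the pig (Sus scrofa) penis, the corpus cavernosum, was profiled by sequencing of polyadenylated RNA in 5 groups of 3 libraries, which the labels call ECs+ implantation, implantation A, implantation B, defect and normal. Pairs among implantation A, defect and normal were of interest to the study, as was the pair of implantation B and ECs+ implantation. The labels give no strain, age or time, do not say what was implanted, how the implantation groups differ or what ECs stands for, and leave unsaid whether each library is its own animal. P-values therefore weigh differences between groups only against the variation of these libraries within groups, and that variation may be technical. For the 3 samples titled ECs+ implantation, part of the description field reads as the third normal sample instead, so the titles and column names define that group here.

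Pericytes are mural cells that sit in the basement membrane of capillaries and small venules, next to the endothelium, and that merge along the vessel with smooth muscle cells. Endothelial PDGF-B recruits them through the receptor PDGFRβ, and Jagged ligands on neighbouring cells keep them in the mural state through Notch3. In erectile tissue, mural cell tone sets how far the cavernous spaces fill with blood. None of the 9 genes is exclusive to pericytes: smooth muscle also uses NOTCH3, MCAM, RGS5 and CSPG4, fibroblasts use PDGFRB and ANPEP, and MCAM and ABCC9 are found in further cells. In bulk tissue, fewer cells of a type and less RNA per cell cannot be told apart.

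Total counts ran from 17234169 to 19644793 in 13 libraries, whereas defect 1 and defect 2 held 207769 and 250178. Defect 3, with 17703564, held 97.5% of the counts of its group. Levels are given as CPM, shares of the library total scaled by TMM factors over all 15 libraries, and, where genes are compared with each other, as the deposited TPM, which is also scaled for transcript length. Fold changes come from edgeR's quasi-likelihood test with Benjamini-Hochberg adjustment over all genes tested, and a gene is said to rise or fall where the adjusted p was under 0.05. TMM scaling centred the genes near 0, with medians of all genes from -0.05 to 0.02 (log2). Scaling by library size alone moved that median to -0.41 in defect against normal, 0.33 in implantation A against defect, -0.25 in implantation B against implantation A, 0.26 in ECs+ implantation against implantation B and -0.34 in implantation B against normal. Changes are given relative to the TMM centre.

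On the TPM scale NDUFA4L2 or PDGFRB stood highest of the 9 genes in every group, and KCNJ8 and ABCC9 stood lowest. In normal tissue NDUFA4L2 stood at 437 TPM, PDGFRB at 309, NOTCH3 at 203, ANPEP at 131, RGS5 at 68.6, CSPG4 at 65.9, MCAM at 21.3, KCNJ8 at 7.29 and ABCC9 at 5.54 TPM (means of 3 libraries). The makeup of the marker signal differed between groups. NDUFA4L2 made up 35% ± 0.971 of the summed TPM of the 9 genes in normal, 19.9% ± 0.661 in implantation A and 46.9% ± 0.762 in ECs+ implantation (SD, n = 3). RGS5 made up 5.52% ± 0.947 in normal and 15.7% ± 0.714 in implantation A. NOTCH3 made up 16.3% ± 0.248 in normal, 9.13% ± 0.84 in defect and 5.89% ± 0.226 in ECs+ implantation. For these 3 genes the libraries of the groups just named did not overlap.

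**Figure D1:**
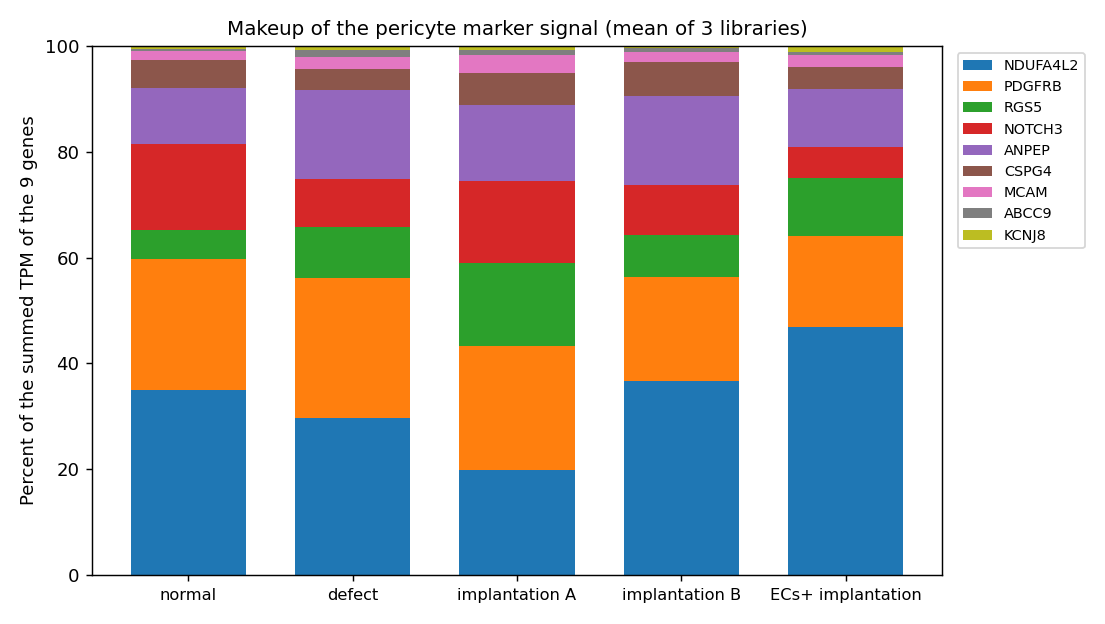
Stacked bars give each gene's percent of the summed TPM of the 9 genes, as the mean of 3 libraries, in the 5 groups. The NDUFA4L2 share runs from 19.9% in implantation A to 46.9% in ECs+ implantation, and KCNJ8 and ABCC9 stay thin slices throughout.

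The receptors come first. NOTCH3 (chromosome 2, 62364507 to 62402348 on Sscrofa11.1) is the Notch receptor of mural cells. It stood at 1035, 956.2 and 904.8 CPM in the normal libraries, at 509.6, 468.4 and 560 in defect, at 789.2, 789.2 and 810.6 in implantation A, at 575.5, 579.8 and 566.2 in implantation B and at 279.2, 293.4 and 275.5 in ECs+ implantation. No 2 groups overlapped, and the mean of the highest group, normal, was 3.42 times that of the lowest, ECs+ implantation, the widest range among the 9 genes. PDGFRB (chromosome 2, 151155753 to 151192818), the receptor through which PDGF-B recruits pericytes, stood at 1053, 978.4 and 934.7 CPM in normal, at 888.2, 1029 and 1101 in defect, at 815.5, 804.7 and 831.5 in implantation A, at 825.7, 812.7 and 831.3 in implantation B and at 563.1, 537 and 553.7 in ECs+ implantation. Normal and defect overlapped, as did both implantation groups without ECs+, and ECs+ implantation lay below all other libraries.

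RGS5 (chromosome 4, 87286953 to 87340816) shortens signalling by G protein-coupled receptors and is among the most used pericyte markers. It stood at 66.2, 72.09 and 83.44 CPM in normal, at 107.5, 104.1 and 157 in defect, at 187.8, 188.1 and 171.6 in implantation A, at 112.1, 106.6 and 107.6 in implantation B and at 122.3, 119.7 and 115.1 in ECs+ implantation. Normal lay below every other library and implantation A above every other, while defect overlapped both remaining groups. The values of defect 1 and defect 2 rest on 23 and 26 counts, with 95% counting intervals of 68.2 to 161 CPM and 68 to 153 CPM. These overlap the interval of defect 3, 151 to 163 CPM.

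KCNJ8 and ABCC9 encode the pore Kir6.1 and the regulatory subunit SUR2 of the ATP-sensitive potassium channel of vascular mural cells, which hyperpolarises the cell and relaxes it. They lie next to each other on chromosome 5, ABCC9 from 51536531 to 51673583 and KCNJ8 from 51695927 to 51704402, with 22343 bases between them. KCNJ8 stood at 9.382, 9.154 and 11.13 CPM in normal, at 9.35, 16.02 and 8.633 in defect, at 13.25, 10.05 and 11.09 in implantation A, at 9.37, 10.24 and 6.375 in implantation B and at 16.97, 15.66 and 14.99 in ECs+ implantation. Groups overlapped along the order except ECs+ implantation against the next, implantation A, although defect 2 reached into the ECs+ implantation range. The values of defect 1 and defect 2 rest on 2 and 4 counts. ABCC9 stood at 15.62, 15.4 and 19.28 CPM in normal, at 23.37, 68.07 and 49.12 in defect, at 28.53, 27.1 and 26.67 in implantation A, at 30.31, 27.52 and 28.92 in implantation B and at 17.73, 16.21 and 17.86 in ECs+ implantation. Normal and ECs+ implantation overlapped each other and lay below the other 3 groups, and defect 1 and defect 2 held 5 and 17 counts. The subunits did not move together: the ratio of ABCC9 TPM to KCNJ8 TPM was 0.758 ± 0.021 in normal, 1.06 ± 0.123 in implantation A, 1.53 ± 0.418 in implantation B, 1.89 ± 0.689 in defect and 0.484 ± 0.0359 in ECs+ implantation (SD, n = 3).

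CSPG4, MCAM and ANPEP encode proteins of the cell surface. CSPG4 (chromosome 7, 57949182 to 57988602), the proteoglycan NG2, stood at 341, 334.3 and 311.5 CPM in normal, at 205.7, 232.2 and 267.5 in defect, at 326.3, 323.5 and 323.4 in implantation A, at 410.2, 407.6 and 414.3 in implantation B and at 210.1, 196.8 and 210.8 in ECs+ implantation. Implantation B lay above all other libraries, normal and implantation A overlapped, and defect and ECs+ implantation overlapped below them. MCAM (chromosome 9, 46506375 to 46522091), the adhesion molecule CD146, stood at 122.4, 126.4 and 119.5 CPM in normal, at 168.3, 144.1 and 170.7 in defect, at 221.7, 216.9 and 214.9 in implantation A, at 144.2, 140.1 and 144.1 in implantation B and at 130.7, 131.8 and 131.2 in ECs+ implantation. Implantation A lay highest and normal lowest, as for RGS5. ANPEP (chromosome 7, 55351081 to 55373856), the peptidase CD13, stood at 275.1, 267.5 and 252.2 CPM in normal, at 378.7, 384.4 and 459.6 in defect, at 321.6, 320.3 and 328.3 in implantation A, at 442.3, 447.2 and 450.2 in implantation B and at 209.5, 214.2 and 216.2 in ECs+ implantation. Defect and implantation B overlapped at the top, and the other groups followed without overlap.

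NDUFA4L2 (chromosome 5, 22540482 to 22548418), a mitochondrial protein induced by HIF-1, stood at 207.6, 189.9 and 176.5 CPM in normal, at 126.2, 124.1 and 194.5 in defect, at 93.52, 98.59 and 91.96 in implantation A, at 202.1, 197.8 and 206.2 in implantation B and at 198.7, 192.3 and 185 in ECs+ implantation. Implantation A lay below all other libraries, and normal, implantation B and ECs+ implantation overlapped. Inside the defect group the shallow libraries, with 27 and 31 counts, lay below defect 3. On the TMM scale their 95% counting intervals, 83.2 to 184 CPM and 84.3 to 176 CPM, did not reach its 194.5. These intervals leave out the scaling, and the TMM factor was 1.03 for defect 1, 0.998 for defect 2 and 0.844 for defect 3. Whether the gap exceeds counting error therefore depends on the scaling. In TPM the 3 libraries stood at 320.8, 311.5 and 387.5.

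**Figure D2:**
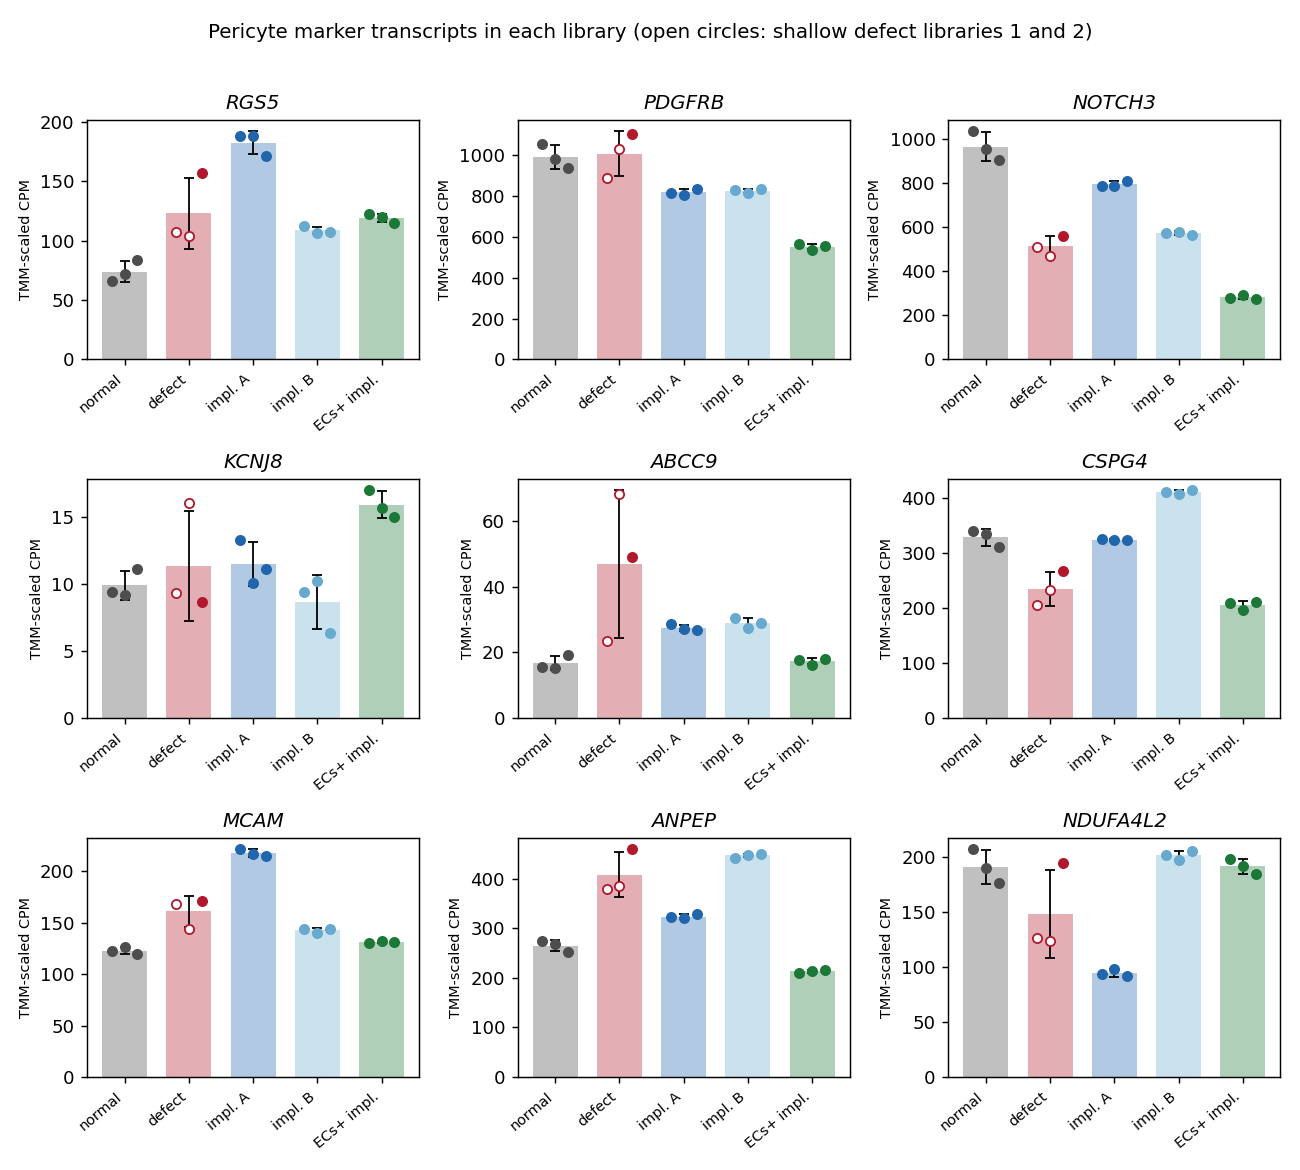
Each panel plots 1 gene's TMM-scaled CPM by group, with points for the 3 libraries, bars at the mean and error bars of 1 SD. Implantation A stands highest for RGS5 and MCAM and lowest for NDUFA4L2, ECs+ implantation stands lowest for PDGFRB, NOTCH3, CSPG4 and ANPEP, and the open circles of the shallow defect libraries stand apart from defect 3 for RGS5 and NDUFA4L2.

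Defect was first set against normal. RGS5, ABCC9, MCAM and ANPEP rose in defect, and NOTCH3 and CSPG4 fell. The model put RGS5 at 2.04-fold (log2 1.03 ± 0.09, SE, adjusted p = 7.84e-16), ABCC9 at 2.92-fold (1.55 ± 0.116, adjusted p = 1.85e-21), ANPEP at 1.66-fold (0.73 ± 0.077, adjusted p = 2.27e-14) and MCAM at 1.37-fold (0.46 ± 0.079, adjusted p = 3.24e-07). NOTCH3 was 1.79-fold lower (-0.84 ± 0.084, adjusted p = 5.55e-15) and CSPG4 1.27-fold lower (-0.35 ± 0.08, adjusted p = 0.000111). PDGFRB (0.08, adjusted p = 0.39), KCNJ8 (-0.17, adjusted p = 0.439) and NDUFA4L2 (-0.05, adjusted p = 0.605) did not pass. Thus 4 of 9 genes rose and 2 fell, where 32% of all genes tested rose and 31.9% fell, and the median log2 fold change was 0.08 against -0.05 over all genes. With library size alone 3 rose and 5 fell, and over all genes 3456 rose and 8894 fell in place of 5715 and 5692. With TPM over all genes 2545 rose and 4694 fell.

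The defect values lean on defect 3. In this fit its TMM factor was 0.816, against 0.994 for defect 1 and 0.964 for defect 2. Leaving it out thus also removes a difference in scaling, and the part of that difference was not tested. Without it the log2 fold change of RGS5 was 0.51 (adjusted p = 0.159) and that of MCAM 0.34 (adjusted p = 0.189), CSPG4 moved to -0.58 (adjusted p = 0.000513), and NDUFA4L2 fell by 0.61 (adjusted p = 0.0115). Over all genes 3521 passed without defect 3, against 11407 with it. Without both shallow libraries PDGFRB rose by 0.16 (adjusted p = 0.0127). NOTCH3, ABCC9, ANPEP and CSPG4 passed in the same direction without defect 3, and kept that direction without both shallow libraries. MCAM missed the threshold with library size alone (0.11, adjusted p = 0.115), where PDGFRB fell by 0.21 (adjusted p = 8.73e-05), KCNJ8 by 0.54 (adjusted p = 0.0106) and NDUFA4L2 by 0.40 (adjusted p = 2.1e-06). With TPM NDUFA4L2 fell by 0.37 (adjusted p = 0.0138), and 4 members rose and 3 fell.

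Implantation A was then set against defect. NDUFA4L2, ABCC9, ANPEP and PDGFRB fell in implantation A, and NOTCH3, MCAM, CSPG4 and RGS5 rose. NDUFA4L2 was 1.95-fold lower (log2 -0.97 ± 0.085, SE, adjusted p = 1.17e-16), ABCC9 1.79-fold lower (-0.84 ± 0.111, adjusted p = 5.81e-10), ANPEP 1.36-fold lower (-0.45 ± 0.077, adjusted p = 6.3e-07) and PDGFRB 1.28-fold lower (-0.36 ± 0.08, adjusted p = 0.000129). NOTCH3 was 1.48-fold higher (0.56 ± 0.084, adjusted p = 2.76e-08), MCAM 1.29-fold (0.37 ± 0.078, adjusted p = 6.27e-05), CSPG4 1.25-fold (0.32 ± 0.08, adjusted p = 0.000566) and RGS5 1.21-fold (0.27 ± 0.088, adjusted p = 0.0085). KCNJ8 (0.38, adjusted p = 0.0882) did not pass, and ABCC9 was called although the libraries of the groups overlapped. Thus 4 of 9 genes rose and 4 fell, where 20.4% of all genes tested rose and 21.4% fell, with a median of 0.27 against 0.02 over all genes. With library size alone 7931 genes of the table rose and 1761 fell in place of 3642 and 3823, and with TPM 4123 rose and 940 fell.

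This comparison rests on defect 3 as well, with the same TMM factors. Without it ABCC9 (-0.79, adjusted p = 0.217), ANPEP (-0.24, adjusted p = 0.208) and NDUFA4L2 (-0.40, adjusted p = 0.27) no longer passed, while RGS5 moved to 0.79 (adjusted p = 0.0153), CSPG4 to 0.56 (adjusted p = 0.00195) and PDGFRB to -0.23 (adjusted p = 0.0489). The count of members changed went from 8 to 5, and that of all genes from 7465 to 1455. Without both shallow libraries RGS5 missed the threshold (0.22, adjusted p = 0.0569). NOTCH3, MCAM, CSPG4, PDGFRB and RGS5 passed in the same direction without any 1 library. Each also kept its direction without both shallow ones, a fit with 1 defect library. With limma-voom MCAM (0.39, adjusted p = 0.0918), CSPG4 (0.36, adjusted p = 0.103), RGS5 (0.41, adjusted p = 0.262) and ABCC9 (-0.79, adjusted p = 0.0521) missed the threshold. With TPM PDGFRB (-0.15, adjusted p = 0.116) and ABCC9 (-0.53, adjusted p = 0.257) missed it, whereas KCNJ8 rose with library size alone (0.69, adjusted p = 0.00164) and with RLE scaling (0.44, adjusted p = 0.0388).

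The groups of implantation A against normal hold no shallow library. RGS5 was 2.46-fold higher in implantation A (log2 1.30 ± 0.066, SE, adjusted p = 1.81e-25), MCAM 1.77-fold (0.82 ± 0.058, adjusted p = 1.18e-22), ABCC9 1.63-fold (0.71 ± 0.09, adjusted p = 6.77e-11) and ANPEP 1.22-fold (0.28 ± 0.06, adjusted p = 2.85e-05). NDUFA4L2 was 2.02-fold lower (-1.02 ± 0.063, adjusted p = 8.64e-24), NOTCH3 1.22-fold lower (-0.28 ± 0.067, adjusted p = 0.000154) and PDGFRB 1.21-fold lower (-0.28 ± 0.068, adjusted p = 0.000244). CSPG4 (-0.023, adjusted p = 0.749) and KCNJ8 (0.21, adjusted p = 0.113) did not pass. The libraries of the groups overlapped for CSPG4 and KCNJ8, and for none of the genes that passed. Thus 4 of 9 genes rose and 3 fell, where 32.2% of all genes tested rose and 32.3% fell, with a median of 0.21 against -0.03 over all genes.

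On log2 of TPM plus 1, 3 members rose and 1 fell between implantation A and normal. PDGFRB (-0.19, adjusted p = 0.0852), NOTCH3 (-0.18, adjusted p = 0.0935) and ABCC9 (0.68, adjusted p = 0.212) then missed the threshold. With TPM plus 0.1 the same genes missed it, at -0.19 (adjusted p = 0.0879), -0.18 (adjusted p = 0.09) and 0.77 (adjusted p = 0.215). Over all genes 2248 rose and 1076 fell with TPM plus 1, in place of 5755 and 5767. KCNJ8 passed without implantation A 2 (0.30, adjusted p = 0.049) and without normal 3 (0.31, adjusted p = 0.0224).

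ECs+ implantation was set against implantation B. ANPEP, NOTCH3 and CSPG4 were each lower by over 2 times in ECs+ implantation, ABCC9 and PDGFRB were lower, and KCNJ8 was higher. ANPEP was 2.14-fold lower (log2 -1.10 ± 0.026, SE, adjusted p = 4.42e-38), NOTCH3 2.08-fold lower (-1.06 ± 0.025, adjusted p = 9.56e-38), CSPG4 2.04-fold lower (-1.03 ± 0.028, adjusted p = 9.7e-36), ABCC9 1.72-fold lower (-0.78 ± 0.079, adjusted p = 1.16e-12) and PDGFRB 1.53-fold lower (-0.61 ± 0.022, adjusted p = 4.94e-30). KCNJ8 was 1.8-fold higher (0.85 ± 0.122, adjusted p = 3.56e-08). MCAM (-0.16 ± 0.034, adjusted p = 6.19e-05), NDUFA4L2 (-0.11 ± 0.032, adjusted p = 0.00192) and RGS5 (0.10 ± 0.038, adjusted p = 0.0215) passed with fold changes within 1.11 either way.

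Thus 7 of 9 genes fell and 2 rose, where 38.1% of all genes tested fell and 37.8% rose, with a median of -0.61 against 0.02 over all genes. The 3 small changes depended on the scaling. RGS5 fell by 0.15 (adjusted p = 0.00303) with TPM, and missed the threshold with DESeq2 (0.08, adjusted p = 0.148), without implantation B 2 (0.08, adjusted p = 0.125), without implantation B 3 (0.08, adjusted p = 0.0942) and without ECs+ implantation 1 (0.08, adjusted p = 0.0864). MCAM rose by 0.08 (adjusted p = 0.0285) and NDUFA4L2 by 0.13 (adjusted p = 0.000236) with library size alone. The split of members was then 4 up and 5 down, and that of all genes 8687 up and 4894 down in place of 6501 and 6547. With TPM it was 1 up and 8 down, and 3985 up and 7808 down over all genes.

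**Figure D3:**
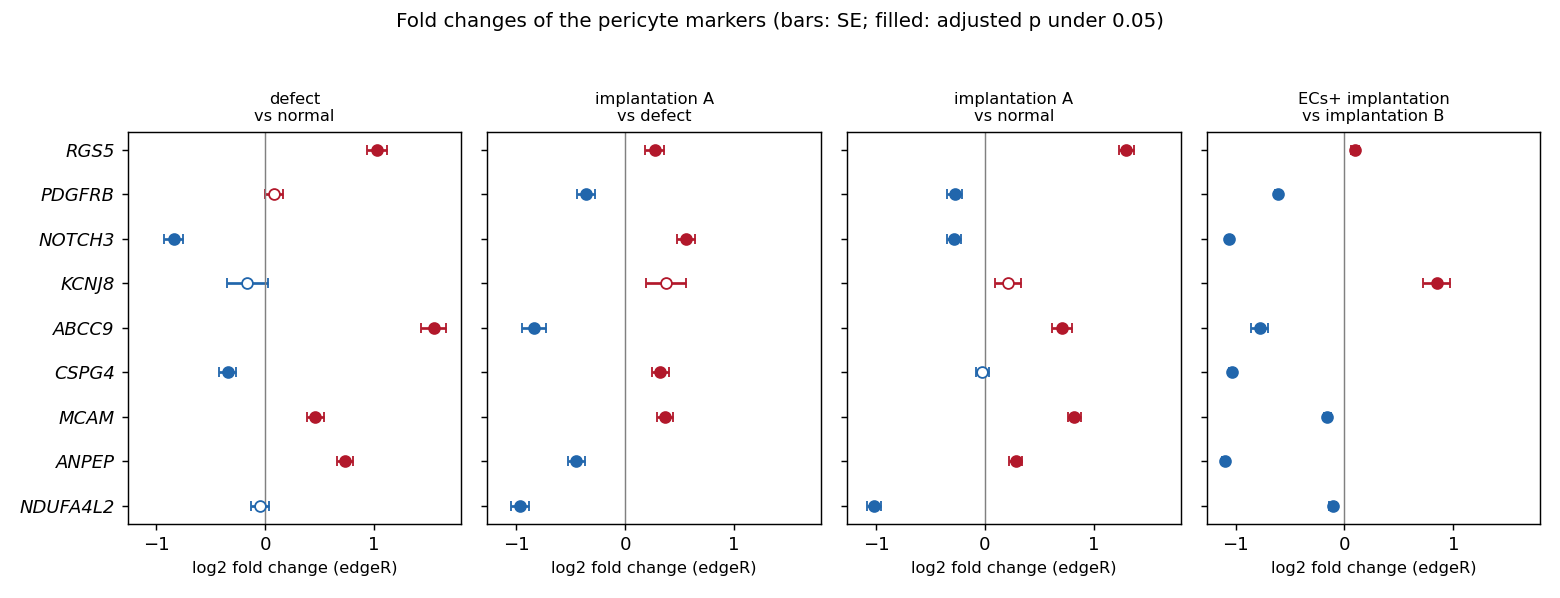
Points give the log2 fold change of each gene with its SE in the 4 comparisons of the study's design, filled where the adjusted p was under 0.05, red above 0 and blue below. The ABCC9 points run from 1.55 in defect against normal to -0.84 in implantation A against defect, and 3 genes lie below -1 in ECs+ implantation against implantation B.

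Some pairs outside the study's design were taken from a fit of all 15 libraries. They were implantation B against implantation A and against normal, and ECs+ implantation against normal. Implantation B against defect, and ECs+ implantation against defect or implantation A, were not tested. Against implantation A, implantation B had higher NDUFA4L2 (log2 1.09 ± 0.054, SE, adjusted p = 8.4e-26), ANPEP (0.47 ± 0.045, adjusted p = 1.05e-14) and CSPG4 (0.34 ± 0.045, adjusted p = 9.21e-10). RGS5 (-0.75 ± 0.057, adjusted p = 1.11e-15), MCAM (-0.61 ± 0.045, adjusted p = 7.24e-20), NOTCH3 (-0.47 ± 0.047, adjusted p = 4.86e-14) and KCNJ8 (-0.41 ± 0.128, adjusted p = 0.00479) were lower. PDGFRB (0.01, adjusted p = 0.876) and ABCC9 (0.08, adjusted p = 0.454) did not pass. KCNJ8 did not pass without implantation A 1 (-0.29, adjusted p = 0.0892) or without implantation B 3 (-0.22, adjusted p = 0.172), nor with DESeq2 (-0.46, adjusted p = 0.103) or TPM (-0.56, adjusted p = 0.114). CSPG4 did not pass with TPM (0.12, adjusted p = 0.155), and PDGFRB fell with library size alone (-0.24, adjusted p = 1.1e-09) and TPM (-0.21, adjusted p = 0.0136). In all, 3 of 9 rose and 4 fell, where 27.2% of all genes tested rose and 23.6% fell, with a median of 0.01 against 0.001. Over all genes 2383 rose and 8512 fell with library size alone and 995 rose and 2432 fell with TPM, in place of 4978 and 4329.

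Against normal, implantation B had higher ABCC9 (log2 0.79 ± 0.087, SE, adjusted p = 6.73e-13), ANPEP (0.75 ± 0.045, adjusted p = 3.04e-25), RGS5 (0.56 ± 0.061, adjusted p = 2.51e-11), CSPG4 (0.32 ± 0.045, adjusted p = 2.13e-09) and MCAM (0.22 ± 0.047, adjusted p = 2.8e-05). NOTCH3 (-0.75 ± 0.047, adjusted p = 3.83e-24) and PDGFRB (-0.26 ± 0.048, adjusted p = 1.09e-06) were lower. KCNJ8 (-0.20, adjusted p = 0.16) and NDUFA4L2 (0.08, adjusted p = 0.167) did not pass. In all, 5 of 9 rose and 2 fell, where 37.1% of all genes tested rose and 36.7% fell, with a median of 0.22 against -0.03. With library size alone 3 rose and 5 fell, MCAM fell by 0.09 (adjusted p = 0.0249), CSPG4 did not pass (0.0089, adjusted p = 0.809) and 4629 genes of the table rose and 9431 fell in place of 6796 and 6715. KCNJ8 (-0.51, adjusted p = 0.000796) and NDUFA4L2 (-0.23, adjusted p = 2.94e-06) also fell there, and KCNJ8 fell with RLE scaling (-0.31, adjusted p = 0.0281). With TPM 3 members rose and 2 fell, and ABCC9 (0.57, adjusted p = 0.109) and MCAM (0.09, adjusted p = 0.313) did not pass.

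The normal libraries weighed on the small changes of that pair. MCAM missed the threshold without normal 2 (0.09, adjusted p = 0.114) and without normal 3 (0.04, adjusted p = 0.398). CSPG4 moved to 0.18 (adjusted p = 0.000532) without normal 2 and to 0.12 (adjusted p = 0.000903) without normal 3, and PDGFRB to -0.42 (adjusted p = 3.66e-13) and -0.46 (adjusted p = 1.7e-27). NDUFA4L2 passed without normal 1 (0.19, adjusted p = 0.000147) and, in the other direction, without normal 3 (-0.14, adjusted p = 0.00185). KCNJ8 passed without implantation B 2 (-0.33, adjusted p = 0.0438) and without normal 2 (-0.40, adjusted p = 0.0114), and PDGFRB without normal 1 stood at -0.17 (adjusted p = 0.000227).

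Against normal, ECs+ implantation had 3.42-fold lower NOTCH3 (log2 -1.77 ± 0.048, SE, adjusted p = 2.39e-45) and lower PDGFRB (-0.84 ± 0.048, adjusted p = 3.18e-26), CSPG4 (-0.68 ± 0.046, adjusted p = 3.43e-22) and ANPEP (-0.31 ± 0.046, adjusted p = 8.11e-09). RGS5 (0.69 ± 0.06, adjusted p = 2.81e-14) and KCNJ8 (0.68 ± 0.118, adjusted p = 5.28e-07) were higher. MCAM (0.10, adjusted p = 0.061), ABCC9 (0.04, adjusted p = 0.691) and NDUFA4L2 (0.0049, adjusted p = 0.938) did not pass. In all, 2 of 9 rose and 4 fell, where 35.7% of all genes tested rose and 35.6% fell, with a median of 0.005 against -0.02. With TPM, KCNJ8 did not pass (0.25, adjusted p = 0.415), MCAM (-0.31, adjusted p = 0.00333) and NDUFA4L2 (-0.30, adjusted p = 0.00656) fell, and 1 member rose and 6 fell. Over all genes 1668 rose and 5473 fell with TPM, in place of 6539 and 6517.

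MCAM against normal also turned on single libraries. It passed without normal 1 (0.11, adjusted p = 0.0325) and without each defect library (0.10, adjusted p from 0.025 to 0.0381), and stood at -0.015 (adjusted p = 0.754) without normal 3. NDUFA4L2 fell by 0.14 (adjusted p = 0.00125) without normal 3. Comparisons that share the normal libraries are not independent of each other.

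Of 19 other measured genes reported in pericytes or mural cells, 7 rose and 7 fell in defect against normal, 7 rose and 6 fell in implantation A against defect, 9 rose and 6 fell in implantation A against normal, and 7 rose and 8 fell in ECs+ implantation against implantation B. Their median log2 fold changes were -0.05, -0.07, 0.27 and -0.07. The shares of all genes given above for these comparisons, 32% and 31.9%, 20.4% and 21.4%, 32.2% and 32.3%, and 37.8% and 38.1%, are the background of these and the following counts, and shares this near it are no result about the list. The split also followed the scaling: with library size alone 4 rose and 10 fell in defect against normal, 10 rose and 4 fell in implantation A against defect, and 9 rose and 5 fell in ECs+ implantation against implantation B. In defect against normal GGT5, a leukotriene-cleaving enzyme, fell by 1.57 (adjusted p = 9.71e-28), STEAP4, a metalloreductase, rose by 3.44 (adjusted p = 2.83e-22) and TBX18, a transcription factor of mural cells, rose by 1.80 (adjusted p = 3.24e-22). In ECs+ implantation against implantation B the laminin chain LAMC3 fell by 2.73 (adjusted p = 1.25e-51), the glycoprotein CD248 fell by 2.46 (adjusted p = 2.78e-43) and GGT5 rose by 2.45 (adjusted p = 1.44e-43).

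Of the PDGF ligands and receptors other than PDGFRB, 5 of 5 measured rose in defect against normal, with a median of 0.87, while PDGFRB itself stood at 0.08. PDGFD, a ligand of PDGFRβ, rose by 2.51 (adjusted p = 5.82e-45), from 33.4 ± 3 CPM in normal to 167.3 ± 32.7 CPM in defect (SD, n = 3), and PDGFRA, the α receptor of fibroblasts, rose by 1.70 (adjusted p = 2.01e-35). All 5 also rose with library size alone and with TPM, and 3 of 5 rose without defect 3. In implantation A against defect 5 of 5 fell, 3 with library size alone, 2 with TPM and 1 without defect 3, and in implantation A against normal 4 rose and 0 fell. In ECs+ implantation against implantation B 2 rose and 3 fell, with PDGFD falling by 1.82 (adjusted p = 6.87e-40) and PDGFRA by 1.68 (adjusted p = 4.62e-44). No row carried the symbol of PDGFB, the ligand that recruits pericytes, so it was not analysed here.

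Of 17 genes of the Notch pathway other than NOTCH3, 5 rose and 11 fell in defect against normal, with a median of -0.63, where 32% and 31.9% of all genes did. With library size alone, which moved all genes the same way to 3456 up and 8894 down, 2 of the 17 rose and 12 fell, and without defect 3 1 rose and 11 fell. The fringe enzymes MFNG (-1.96, adjusted p = 1.53e-26) and LFNG (-1.31, adjusted p = 2.32e-24), which modify Notch receptors, and the ligand JAG2 (-1.33, adjusted p = 2.16e-23) led by p-value. Of the 17, 10 rose and 1 fell in implantation A against defect, where 20.4% and 21.4% of all genes did, and 4 rose and 0 fell without defect 3. Among those that rose were NOTCH4 (0.76, adjusted p = 8.55e-10), an endothelial Notch receptor, and the ligand JAG1 (0.49, adjusted p = 3.48e-07). In implantation A against normal 6 rose and 11 fell. In ECs+ implantation against implantation B, where NOTCH3 fell, 10 rose and 6 fell, with a median of 0.22, but with TPM 6 rose and 8 fell, with a median of -0.04. LFNG rose by 1.68 (adjusted p = 4.69e-38), whereas NOTCH2, another receptor of mural cells, fell by 0.87 (adjusted p = 5.13e-34).

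The paralogous channel genes KCNJ11 and ABCC8, better known from pancreatic islets, were scarce, at 2.6 ± 0.32 and 4.37 ± 0.905 CPM in normal. Both fell in ECs+ implantation against implantation B (-1.34, adjusted p = 0.0011, and -1.96, adjusted p = 1.34e-13), where KCNJ8 rose. Of 13 other RGS genes, 6 rose and 4 fell in defect against normal and 3 rose and 3 fell in implantation A against normal. RGS4 rose by 2.20 (adjusted p = 2.09e-11) in defect and RGS1 by 2.58 (adjusted p = 1.21e-15) in implantation A. In ECs+ implantation against implantation B 3 of 11 tested rose and 6 fell, led by RGS16, which rose by 1.39 (adjusted p = 9.99e-28). With library size alone 5 RGS genes rose and 6 fell in defect against normal, and 5 rose and 5 fell in ECs+ implantation against implantation B.

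Of 16 genes, 15 of them hypoxia-responsive and the other the NDUFA4L2 paralogue NDUFA4, 8 rose and 5 fell in defect against normal, 4 rose and 6 fell in implantation A against defect, 6 rose and 5 fell in implantation A against normal and 4 rose and 8 fell in ECs+ implantation against implantation B. With library size alone these splits were 6 and 8, 7 and 5, 6 and 5, and 7 and 5. In implantation A against normal, where NDUFA4L2 fell, VEGFA, the endothelial growth factor, fell by 0.90 (adjusted p = 2.3e-24), while HK2, a hexokinase, rose by 2.09 (adjusted p = 2.67e-25). NDUFA4 had means between 24 and 26.1 CPM in the 4 groups other than ECs+ implantation, which had 44.5 ± 2.22 CPM (SD, n = 3). Of 16 genes of signalling and matrix between pericytes and endothelium, 7 rose and 8 fell in defect against normal and 8 rose and 6 fell in ECs+ implantation against implantation B, the latter 6 and 9 with TPM. S1PR3, a sphingosine phosphate receptor of mural cells, rose by 4.21 (adjusted p = 2.14e-38) in defect, from 2.19 ± 0.704 to 31.4 ± 9.49 CPM. The endothelial receptor TIE1 fell by 1.58 (adjusted p = 2.03e-29) there and rose by 1.82 (adjusted p = 2.54e-46) in ECs+ implantation. Each of these lists was chosen with earlier results of these data known, and their counts are descriptions.

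Markers of neighbouring cell types moved in the same comparisons. The summed level of the 9 genes was 2963 ± 157 CPM in normal, 2652 ± 284 in defect, 2795 ± 15.8 in implantation A, 2745 ± 14 in implantation B and 1729 ± 17.2 in ECs+ implantation (SD, n = 3). ECs+ implantation lay below every other library, and defect overlapped the other 3 groups. The summed level of 12 endothelial markers was 4281 ± 129 CPM in normal and 4289 ± 54.2 in ECs+ implantation, against 1996 ± 11.3 in implantation B, 2460 ± 16.5 in implantation A and 2642 ± 309 in defect. In ECs+ implantation against implantation B 11 of 12 endothelial markers rose and 1 fell, where 37.8% of all genes tested rose and 38.1% fell. Of the 9 genes described here 2 rose and 7 fell, but with library size alone 4 rose and 5 fell. The 19 other genes reported in pericytes or mural cells split 7 up and 8 down there.

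Summed contractile smooth muscle markers, 12 genes, stood at 6803 ± 45 CPM in implantation A and between 3741 and 5012 CPM in the other group means. In implantation A against normal 11 of 12 rose and 1 fell, where 32.2% of all genes tested rose and 32.3% fell. In this comparison RGS5 and MCAM rose, NOTCH3 fell and CSPG4 did not pass (-0.023, adjusted p = 0.749). Summed fibroblast markers, 10 genes, stood at 16070 ± 249 CPM in normal and 17370 ± 78.9 in ECs+ implantation, at 70610 ± 63.4 in implantation A, and at 145200 ± 1550 in implantation B and 147800 ± 16000 in defect. The spread inside defect followed the scaling: the sum ran from 134600 to 165500 in TMM-scaled CPM and from 50200 to 52220 in TPM. ANPEP shared part of the order of the fibroblast sum, with defect and implantation B over implantation A, and all of these over the other 2 groups. Those 2 were reversed, as ANPEP was higher in normal (mean 264.9 CPM) than in ECs+ implantation (213.3 CPM). The group means of ABCC9, from 46.85 CPM in defect to 16.76 CPM in normal, followed the whole order. Most groups next to each other in that order overlapped for ABCC9. PDGFRB, which like ANPEP is used by fibroblasts, did not follow the sum. Its means were 1006 CPM in defect and 988.6 in normal, over 823.2 in implantation B and 817.2 in implantation A. Summed macrophage and monocyte markers, 11 genes, stood at 1239 ± 3.87 CPM in implantation B and 1261 ± 201 in defect, against 482 to 561 CPM in the other group means. The part of these cell types in the values of the 9 genes was not tested.

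Epithelial content separated ECs+ implantation from all other groups. Summed keratinocyte and urothelial markers, 9 genes measured, stood at 4.18 ± 0.584 CPM there, with 2 of 9 at 0 in all 3 libraries, against 862 ± 33.9 CPM in normal and 2134 ± 18.9 CPM in implantation B. KRT5, the basal keratin, stood at 0.0733 ± 0.127 CPM in ECs+ implantation and at 1646 ± 24.3 CPM in implantation B. Summed Schwann cell markers, 8 genes, ran from 577 to 806 CPM over the groups, adipocyte markers, 7 genes, from 56.4 to 133.1 CPM, mast cell markers, 5 genes, from 18.1 to 47.6 CPM and skeletal muscle markers, 7 genes, from 1.54 to 7.95 CPM. Endothelial, smooth muscle and fibroblast markers known from corpus cavernosum were present in every library, and their part or that of the epithelium in the members' differences was not tested.

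**Figure D4:**
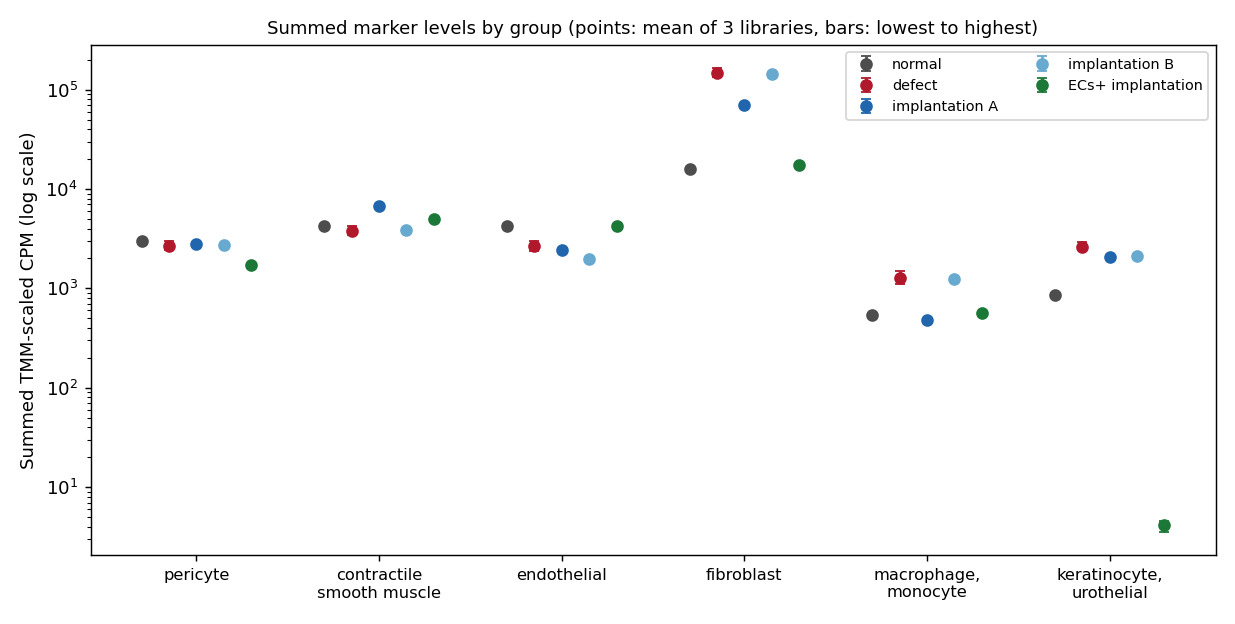
Points give the summed TMM-scaled CPM of each marker list as the mean of 3 libraries, with bars from the lowest to the highest library, on a log axis. The pericyte sum is lowest in ECs+ implantation at 1729 CPM, where the endothelial sum is 4289 CPM and the keratinocyte and urothelial sum 4.18 CPM.

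Among the 9 genes, RGS5 and MCAM had the most alike levels over the 15 libraries (Pearson r of log2 CPM = 0.865), followed by PDGFRB and NOTCH3 (0.765) and ABCC9 and ANPEP (0.733), while MCAM and NDUFA4L2 ran most opposite (-0.853). These values are descriptions over 15 libraries in 5 groups that share a group mean and a depth, and without both shallow libraries they were 0.884, 0.862, 0.841 and -0.892. Genes most like each member were sought over all 15 libraries among genes with a symbol and a mean log2 CPM of at least 5. For RGS5 they were NEXN (0.948), GREM1 (0.932) and DKK2 (0.924), but without both shallow libraries DKK2 (0.977) stood above NEXN and GREM1 (0.956 each). For MCAM they were FILIP1L (0.939), GREM1 (0.939) and ITIH5 (0.919), at 0.945, 0.944 and 0.929 without the shallow libraries. The closest over 15 libraries was ASAP3 (0.99) for NOTCH3, MAN2A2 (0.979) for PDGFRB, ACAN (0.997) for ANPEP and ARNT2 (0.971) for CSPG4, at 0.992, 0.988, 0.997 and 0.973 without the shallow libraries. There CUX1 (0.989) passed MAN2A2 and PER3 (0.981) passed ARNT2. For ABCC9, ENSA (0.952) led over 15 libraries, but PMEPA1 stood at 0.973 and ENSA at 0.949 without the shallow ones. For KCNJ8, MAP3K1 (0.834) led over 15 libraries, but CALCRL stood at 0.84 and MAP3K1 at 0.814 without them.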

How the data were processed

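Per the labels, polyadenylated RNA went through the TruSeq RNA Library Prep Kit v2. The build Sscrofa11.1 and the tools DESeq2, HTSeq, HISAT2 and fastp are listed, without settings, per the submitters' processing notes. Strand use in counting is not given in the sources available, so a gene and an overlapping or antisense neighbour may share reads. The authors deposited raw gene counts and TPM values for the same 26654 genes, and their way of making TPM is likewise not stated. Coordinates come from RefSeq's Sscrofa11.1 gene table, matched by symbol.

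Tests on counts used edgeR 4.0.16 with R 4.3.3 (filterByExpr, TMM, robust glmQLFit, glmQLFTest, two-sided, Benjamini-Hochberg over the whole table, threshold 0.05), and limma 3.58.1 served for alternatives. Implantation A, defect and normal shared a fit of 9 libraries, the 6 libraries of the other groups had their own, and other pairs came from all 15. The model weights libraries by depth, so in defect a modelled fold need not equal the quotient of the CPM means. SEs are Wald errors of the model, and intervals cover counting error only. Within groups, the chi-square between libraries, divided by its degrees of freedom, was 1.45 to 5.81 outside defect and 1.25 to 1.29 in defect, over genes with at least 20 counts in a pair. The low values cannot tell repeats of a sample from separate samples, least of all at the depth of defect 1 and defect 2. No pair of libraries in a group had identical counts, and each was kept as its own library.

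The 9 genes and all lists were chosen with earlier results of these data known. Named genes were all 9 members, up to 3 genes of each list with the smallest p, the 3 genes most correlated with each member and defining markers. NDUFA4 was named after its values were seen. The gene pattern most like NDUFA4L2 is not reported here. As alternatives served DESeq2 1.42.0, different scalings, filters and thresholds, limma-voom, limma-trend on log2 TPM plus 1 or 0.1, other sets of libraries, a replicate block, thinning to the shallowest total and leaving out each library. Recounting the other lists under other scalings was added after seeing the data. The scripts were tested on simulated data.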

Additional observations from a re-analysis of the deposited data

How the results depend on the processing

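Of 1590 recomputed log2 fold changes of the 9 genes, 1427 kept their direction and side of the threshold, and of the 73 whose sign turned, 7 belonged to a call. Of 178 recomputed counts of members changed, 170 stayed within 1.5 times. Counts of members moved in implantation A against defect, from 8 to 4 with limma-voom, to 3 with thinning and to 5 to 8 with 1 library left out, in implantation A against normal, from 7 to 4 with TPM at either pseudocount or unfiltered, in implantation B against implantation A, from 7 to 4 with thinning, and in implantation B against normal, from 7 to 3 with thinning. Thinning to the shallowest total leaves few counts. The cause of the other moves was not tested. Counts of KCNJ8 and ABCC9 in the shallow libraries limit their defect values.

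Counts over all genes moved in defect against normal, from 11407 to 7436 with DESeq2, 7239 with TPM plus 1, 6888 plus 0.1, 5300 with limma-voom, 2334 with thinning and 3521 to 11950 with 1 library left out. In implantation A against defect they moved from 7465 to 3792 with DESeq2, 4464 with TPM plus 0.1, 1741 with limma-voom, 897 with thinning and 1455 to 8485 with 1 left out. In implantation A against normal they moved from 11522 to 6876 with DESeq2, 3324 with TPM plus 1, 3006 plus 0.1, 3329 unfiltered and 1398 with thinning. In implantation B against implantation A they moved from 9307 to 6192 with DESeq2, 3427 with TPM plus 1, 3081 plus 0.1, 3513 unfiltered and 705 with thinning. Against normal they moved from 13511 for implantation B to 7445, 6642 and 8452 with TPM (plus 1, plus 0.1, unfiltered) and 2530 with thinning, and from 13056 for ECs+ implantation to 7141, 6536, 8093 and 2223.

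Signs turned as follows (log2). In defect against normal PDGFRB gave -0.21 with library size alone, -0.037 with TPM plus 1 or unfiltered, -0.038 plus 0.1 and -0.039 to 0.15 with 1 library left out. KCNJ8 gave 0.099 with TPM plus 1 or unfiltered, 0.10 plus 0.1, 0.21 with limma-voom and -0.22 to 0.39 with 1 left out. NDUFA4L2 gave 0.031 without both shallow libraries and -0.61 to 0.049 with 1 left out. KCNJ8 in implantation A against defect gave -0.17 to 0.46 with 1 left out. CSPG4 in implantation A against normal gave 0.0003 without a filter, 0.076 with TPM plus 1 or unfiltered, 0.077 plus 0.1 and -0.059 to 0.017 with 1 left out. In ECs+ implantation against implantation B RGS5 gave -0.15 with each TPM setting, and MCAM 0.081 and NDUFA4L2 0.13 with library size alone. In implantation B against implantation A PDGFRB gave -0.043 with DESeq2 and RLE, -0.24 with library size alone, -0.0021 with the CPM filter, -0.21 with each TPM setting, -0.0053 with only these groups, -0.26 with thinning and -0.057 to 0.026 with 1 left out. ABCC9 gave -0.17 with library size alone, -0.12 with TPM plus 1 or unfiltered and -0.13 plus 0.1. In implantation B against normal MCAM gave -0.094 with library size alone and -0.50 with thinning. NDUFA4L2 gave -0.035 with DESeq2, -0.23 with library size alone, -0.034 with RLE, -0.0094 with TPM plus 1 or unfiltered, -0.0095 plus 0.1 and -0.14 to 0.19 with 1 left out. In ECs+ implantation against normal ABCC9 gave -0.058 with DESeq2 and RLE, -0.067 with library size alone, -0.30 with TPM plus 1 or unfiltered, -0.36 plus 0.1 and -0.096 to 0.0902 with 1 left out. MCAM gave -0.0062 with DESeq2, -0.0063 with RLE, -0.014 with library size alone, -0.31 with TPM plus 1 or unfiltered, -0.33 plus 0.1, -0.34 with thinning and -0.015 to 0.11 with 1 left out. NDUFA4L2 gave -0.097 with DESeq2 and RLE, -0.10 with library size alone, -0.006 with the CPM filter, -0.30 with each TPM setting and -0.14 to 0.0804 with 1 left out.

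Same-numbered libraries of compared groups had correlated deviations of -0.226 to 0.297, with every pair over 0.1 in 0 of 7 comparisons, and 3 of 21 correlated best with their own number, so the numbers were not taken as pairs. With the replicate number as a block, all 63 fold changes kept their direction and side of the threshold, and members changed stayed at 6, 8, 7, 9, 7, 7 and 6 over the comparisons in the order reported.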
